A study of Mus musculus with 12 samples.

Results

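Iron handling in the liver was examined through 8 genes, Trf, Tfrc, Tfr2, Fth1, Ftl1, Hamp, Slc40a1 and Cp, chosen by name, with no measured value in the rule, out of 21887 protein-coding genes. For each gene, S9.6 peaks were collected that overlapped the RefSeq gene body with 1 kb on both sides, out of 28717 peaks from HEPA1-6 cells and 14908 peaks from mouse liver. S9.6 is an antibody against RNA-DNA hybrids, and its peaks are taken to mark R-loops, in which an RNA strand pairs with 1 DNA strand and leaves the other unpaired. HEPA1-6 is a mouse hepatoma line. The liver came from C57/Bl6 mice, whose age and number the labels do not give, and both sources are labelled wild type, untreated and hepatocyte. The study made 12 libraries in 6 groups of 2, namely immunoprecipitate, immunoprecipitate with RNase H1 (an enzyme that removes the RNA of hybrids) and input for each source. Going by its title, the study concerns R-loops and genome editing delivered by adeno-associated virus. The data used here are 1 list of peaks per source, called on a merged immunoprecipitate against input. There is no replicate list, so no difference between the sources has a replicate check and no p-value is given. The depth of the libraries is unknown, and a gene without a peak had no peak above the authors' threshold at that depth. RNase H1 libraries were not analysed here, so how much of each peak that enzyme would remove is not known.

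Of the 8 genes, 7 held a HEPA1-6 peak, against 42.0% of 21887 protein-coding genes (9191 genes). A liver peak was found at 4 of the 8, against 29.7% of protein-coding genes (6491 genes). All 4 of these (Trf, Tfrc, Fth1 and Ftl1) held a HEPA1-6 peak too, whereas Hamp, Slc40a1 and Cp held a HEPA1-6 peak only and Tfr2 held none. A peak in both lists was thus found at 4 of 8, against 27.8% of protein-coding genes. Among genes with a HEPA1-6 peak, 66.1% also held a liver peak, and among the iron handling genes this was 4 of 7, close to that background. The genes were chosen with earlier results of these data known, so these counts describe them and are not a test. By length, of the 3 genes of up to 5 kb (Fth1, Ftl1 and Hamp) 3 held a HEPA1-6 peak and 2 a liver peak, in a class of 5034 genes where 22.5% and 16.5% did. Of the 2 genes of 5 to 20 kb (Tfr2 and Slc40a1) 1 held a HEPA1-6 peak and 0 a liver peak, in a class of 6815 genes where 46.6% and 32.2% did. Of the 3 genes of 20 to 60 kb (Trf, Tfrc and Cp) 3 held a HEPA1-6 peak and 2 a liver peak, in a class of 5876 genes where 49.9% and 33.7% did.

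Iron travels in blood bound to transferrin and enters cells when transferrin binds its receptor and is taken up. Inside the cell it is stored in ferritin, a hollow shell built from heavy and light chains, and it leaves through ferroportin, after which ferroxidases such as ceruloplasmin oxidise it for loading onto transferrin. Hepatocytes set the balance for the whole body by secreting hepcidin, which makes ferroportin disappear from the surface of other cells.

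Marker genes were looked at first. Of 6 hepatocyte marker genes, 2 held a HEPA1-6 peak (Alb and Apob) and 1 a liver peak (Alb). Ttr, Apoa1, Serpina1a and Fgb held none in either list. All 4 proliferation genes examined (Mki67, Top2a, Cdk1 and Plk1) held peaks in both. Over protein-coding genes these shares were 42.0% in HEPA1-6 and 29.7% in liver, and counts on 6 and 4 genes are too few to check the labels. A peak list is not a measure of expression, and the second list is called the liver list after its label. Iron genes with a liver peak are given below with that limit, and whether the cells of that sample matter for them was not tested.

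Peak edges have a resolution of their own, which the transferrin receptor gene shows at the level of bases. The labels cite a published protocol for the extraction, in which DNA is cut with a mix of restriction enzymes before immunoprecipitation, although they do not list the enzymes used. Both peaks at Tfrc began at the same base, 32608954 on chromosome 16, the second base of a recognition site of HindIII, the enzyme that cuts after the first A of AAGCTT. The 30 bases around it (GRCm38, chr16:32608941-32608970, plus strand, from RefSeq) are shown because both peaks start inside them, with the site in capitals.
Tfrc peak start: gggccgagctatAAGCTTtgggtgggaggc
The peak over Ftl1 in HEPA1-6 ended at 45467094 on chromosome 7, within another HindIII site (45467090 to 45467095). No other edge of these genes' peaks fell in a sequence that was at hand. Over all promoter windows, 840 HEPA1-6 edges could be placed, and 54.0% (Wilson 95% interval 50.7% to 57.4%, counting error only) lay within 5 bp of a site of HindIII, EcoRI, SspI, BsrGI or XbaI, against 1.82% of all positions in those windows. For 777 liver edges the share was 43.0% (39.5% to 46.5%). The widths, shared edges and overlaps of peaks given below carry that limit, and its part in any single one was not tested.

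Promoter sequences were matched by gene symbol to the RefSeq table (GRCm38.p6, 250 bases before to 50 after each transcript start), which gave 11 windows for 6 of the 8 genes. Trf and Slc40a1 were not matched. HEPA1-6 peaks touched 4 of the 11 windows, 1 each of Tfrc, Fth1, Ftl1 and Hamp, against 15.3% of 32841 windows. Liver peaks touched 2, those of Tfrc and Ftl1, against 9.85% of windows. The bases before the transcript start are shown for the 3 genes whose window lay wholly under a peak, 5′ to 3′ on the gene's strand, with capitals for GGGG, its complement CCCC, and GGCGCC. The Fth1 window belongs to the second of 2 transcript starts and lies within the span of the longer transcript. Runs of G are shown because hybrids are known to form readily where the displaced strand is rich in G. The bases shown lie before the start and are not transcribed from it.
Fth1, chr19:9982396-9982645, plus strand: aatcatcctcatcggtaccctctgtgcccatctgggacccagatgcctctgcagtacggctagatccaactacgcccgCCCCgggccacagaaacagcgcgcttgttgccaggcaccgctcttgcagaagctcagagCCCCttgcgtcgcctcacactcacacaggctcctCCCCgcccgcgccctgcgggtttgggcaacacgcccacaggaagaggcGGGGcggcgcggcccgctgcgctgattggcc
Ftl1, chr7:45459887-45460136, minus strand: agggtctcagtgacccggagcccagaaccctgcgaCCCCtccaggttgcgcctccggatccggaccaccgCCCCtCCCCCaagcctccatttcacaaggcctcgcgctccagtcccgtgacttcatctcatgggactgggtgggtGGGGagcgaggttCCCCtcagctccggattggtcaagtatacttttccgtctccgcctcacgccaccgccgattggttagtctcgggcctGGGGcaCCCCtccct
Hamp, chr7:30944030-30944279, minus strand: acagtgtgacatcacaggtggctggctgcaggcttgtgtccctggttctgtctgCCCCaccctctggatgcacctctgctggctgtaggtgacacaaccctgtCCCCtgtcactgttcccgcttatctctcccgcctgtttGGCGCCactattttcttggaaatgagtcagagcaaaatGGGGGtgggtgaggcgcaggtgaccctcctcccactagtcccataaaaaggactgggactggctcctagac

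Windows of these genes under a peak were mostly, but not always, richer in G and C than those without one. The 250 bases shown held 66.8% G or C in Fth1 and 65.2% in Ftl1, against a median of 52.4% over all windows. In Tfrc, whose second window was covered over 218 of 300 bases in both lists, that window held 68.0% and the first, which no peak touched, 64.8%. Hamp lay lower, at 57.2%, beside the 3 windows of Tfr2 (58.4%, 54.0% and 54.0%), which no peak touched. The windows of Cp, which no peak touched, held 37.2% and 39.2%, and the more upstream window of Fth1, also untouched, held 34.8%. The same direction was seen in the whole table: the median was 63.2% in windows wholly under a HEPA1-6 peak and 50.8% in untouched windows. For the liver list these medians were 64.0% and 51.2%.

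Runs of G were counted in the same windows. Counting matches of GGGG on both strands without overlap, the first Tfr2 window had 9, all on the gene's own strand, and 95.6% of windows had fewer, yet no peak lay there. The Ftl1 window had 7 (2 on its own strand and 5 on the other), Fth1 had 4, and Hamp and each Tfrc window had 3. Among the other windows that no peak touched, those of Tfr2 had 8 and 7, the first of Fth1 and the first of Cp had 0 and the second of Cp had 1. At least 1 such run was present in 83.1% of all windows, so its presence alone separates little. These counts cover bases before the start on both strands, so they do not measure G on a displaced strand after it. In the 50 bases after the start, (G - C)/(G + C) on the gene's strand was -0.176 in the covered Fth1 window. It was 0.0714 in Ftl1, -0.0769 in Hamp and 0.5 in the second Tfrc window. Windows that no peak touched ranged from -0.391 (first of Fth1) to 0.444 (first of Tfrc). GGCGCC, which reads the same on both strands and is known in the hepcidin promoter as the element that answers bone morphogenetic protein signals, was found 109 bases before the Hamp transcript start. It was also found 89 bases before the first Tfrc start. Of all windows 9.59% hold it, and a match is a description of the letters, not of binding. TATAAA, searched with the others on both strands, was found 25 bases before the second Cp start on the gene's strand. It was also found on the opposite strand there and in the first Fth1 window, and on the gene's strand 18 bases after the Ftl1 start. In the bases before the start, 12.4% of all windows hold it. CACGTG, held by 6.02% of windows, was in none of the 11. The letter pair CG and CAGTG, the loop letters of iron-responsive elements, are in 92.1% and 48.5% of windows before the start on either strand, so finding them there says little. After the start on the gene's strand, CAGTG is in 7.20% of windows. Of the 11 windows only the second of Tfr2, which no peak touched, had it there, at base 38.

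Transferrin, the iron carrier of plasma, is encoded by Trf (chr9:103208876-103230286, 21411 bp), and this gene held more peaks than any of the other 7. In HEPA1-6 there were 4 peaks, with scores of 38, 22, 18 and 34 from the lower to the higher coordinate. The scores are the authors' whole numbers on an unstated scale, so they are read only by rank within a list, whose medians were 21 in HEPA1-6 and 22 in liver. The first peak was the widest, 8801 bp from 103208849 to 103217649, and 16.1% of HEPA1-6 peaks scored higher. The others were 1704, 351 and 3195 bp wide. The liver list had 3 peaks, of 578, 904 and 1569 bp, with scores of 30, 30 and 14. The last of these scored below most of its list, where 88.0% of peaks were higher.

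The liver peaks in Trf all overlapped HEPA1-6 peaks but covered less of the gene, and the middle 2 HEPA1-6 peaks had no liver counterpart. The 2 higher-scoring liver peaks lay wholly inside the widest HEPA1-6 peak, and the third (103228572 to 103230140) shared 1186 bp with the HEPA1-6 peak at 103226563 and reached 383 bp past it. Peaks covered 65.5% of the gene body in HEPA1-6 (14024 bp) and 14.2% in liver (3051 bp). Protein-coding genes of all lengths with a peak had median covered shares of 15.4% and 5.84%, so Trf stood above the median in both lists. Of the bases covered in either list, 0.185 were covered in both. All 7 peaks carried the minus strand and none touched another gene. In this gene 4 or more HEPA1-6 peaks were present, as in 27.7% of the genes with any.

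**Figure D1:**
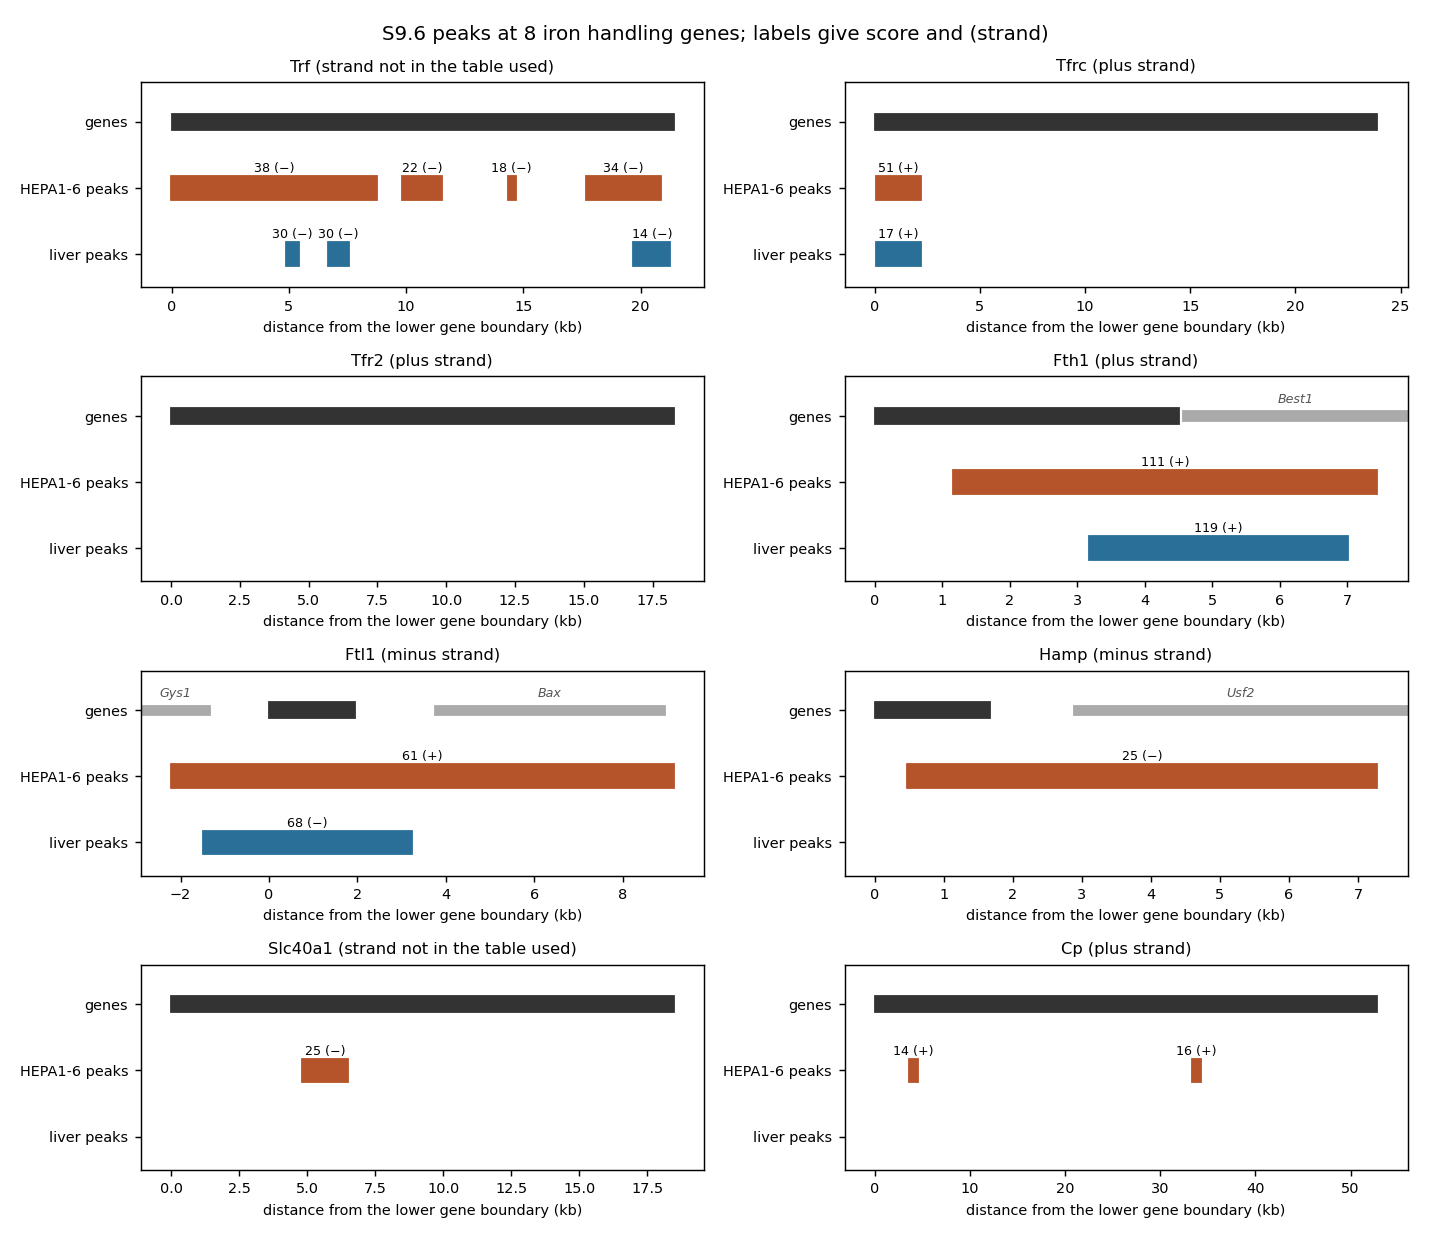
Peaks at the 8 genes, drawn to scale in kb from the lower gene boundary in genome direction. Dark bars are the named genes, grey bars other genes under the peaks, orange bars HEPA1-6 peaks and blue bars liver peaks, with score and strand; the peaks at Fth1, Ftl1 and Hamp run on into Best1, Gys1 and Bax, and Usf2, and Tfr2 has none.

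The transferrin receptor that takes up iron in most cells is encoded by Tfrc (chr16:32608896-32632794, plus strand, 23899 bp). Each list had 1 peak there, on the plus strand, and these were the most alike of all pairs. The HEPA1-6 peak ran from 32608954 to 32611101 (2148 bp) and the liver peak from 32608954 to 32611083 (2130 bp), so that the ends differed by 18 bp. Both began 58 bp after the first annotated transcript start and 168 bp before the second. Their rank differed: the HEPA1-6 peak scored 51, with 8.90% of its list higher, while the liver peak scored 17, with 68.4% higher. About 9% of the gene was covered in each list (8.99% and 8.91%), all of it at the 5′ end. No peak was called over the rest of the gene, including its 3′ end, where the messenger RNA carries the iron-responsive elements that control its stability.

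Tfr2 (chr5:137569822-137588081, plus strand, 18260 bp) encodes the second transferrin receptor, which hepatocytes use to sense iron-loaded transferrin. It was the only gene of the 8 without a peak in either list. The nearest HEPA1-6 peak lay 3630 bp past its end, was 245 bp wide without a strand and scored 13. The nearest liver peak lay 9177 bp away and scored 20. The surroundings held many peaks: 18 in HEPA1-6 and 13 in liver within 100 kb of the gene, where protein-coding genes had medians of 4 and 1.

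Both ferritin chain genes held the highest-ranked peaks of the 8 genes, and in both lists. At Fth1, the heavy chain gene, whose product oxidises iron as it enters the shell (chr19:9980600-9985111, plus strand, 4512 bp), the HEPA1-6 peak scored 111 (rank 589 of 28717) and the liver peak 119 (rank 227 of 14908). Peaks scoring higher made up 2.05% and 1.52% of the lists. Both lay on the plus strand, that of the gene. The HEPA1-6 peak spanned 9981763 to 9988046 (6284 bp) and contained the liver peak, 9983779 to 9987607 (3829 bp). The HEPA1-6 peak began 883 bp before the second transcript start and covered it, while the liver peak began 1133 bp after it. The covered share of the gene was 74.2% in HEPA1-6 and 29.5% in liver. Both peaks ran past the 3′ end of Fth1, by 2935 and 2496 bp, into Best1, a gene on the opposite strand. In liver, 63.6% of the peak lay over Best1 and 34.8% over Fth1.

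Ftl1, the light chain gene, whose product helps to form the iron core (chr7:45457944-45459886, minus strand, 1943 bp), lay wholly under a peak in each list. The HEPA1-6 peak (45455727 to 45467094) was 11368 bp wide, wider than 98.6% of its list, and scored 61, with 6.15% of peaks higher. The liver peak (45456448 to 45461175) was 4728 bp wide and scored 68, with 4.33% higher. All of the liver peak lay inside the HEPA1-6 peak, but the strands were opposite: the HEPA1-6 peak was given the plus strand and the liver peak the minus strand of Ftl1. This was the only pair of the 6 at these genes with unlike strands. The HEPA1-6 peak covered the whole of Bax, a minus-strand gene of apoptosis (5209 bp, 45.8% of the peak), and the last 891 bp of Gys1, a plus-strand gene of glycogen synthesis. Ftl1 made up 17.1% of that peak and 41.1% of the liver peak, which also held 170 bp of Gys1 and none of Bax.

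Ferritin genes have copies elsewhere in the genome, and reads from near-identical copies can be placed at either. Copies were searched by symbols that begin with Fth or Ftl, and copies under other names were not searched. This gave 5 pseudogenes of Fth1 or Ftl1 and 9 genes or pseudogenes of the Fthl17 family on the X chromosome. None of these had a liver peak, and only Ftl1-ps2 had a HEPA1-6 peak in its window. That peak (chr10:130593770-130594993, score 2106, minus strand) lay outside the pseudogene itself, with 0 bp in it.

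**Figure D2:**
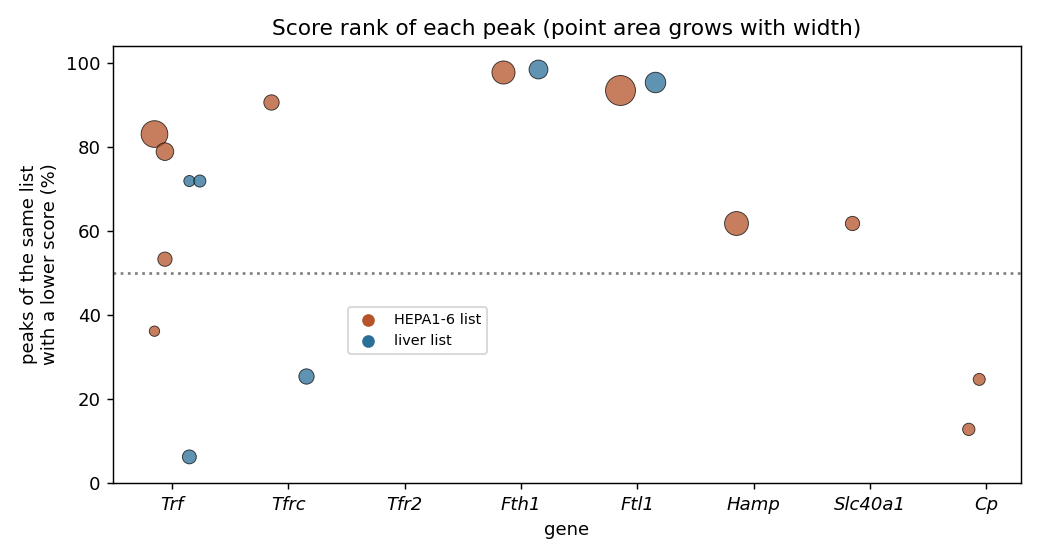
Each point is 1 peak at the gene on the x axis, and the y axis gives the percentage of peaks of the same list that scored lower, with point area growing with peak width. The Fth1 and Ftl1 peaks of both lists lie above 93%, the Tfrc peaks are at 90.8% in HEPA1-6 and 25.6% in liver, and both Cp peaks are below 25%.

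Hamp encodes hepcidin, the hormone that lowers iron release (chr7:30942368-30944029, minus strand, 1662 bp), and its HEPA1-6 peak was shared with a neighbour. The peak ran from 30942835 to 30949647 (6813 bp) on the minus strand, scored 25, and 35.7% of the list scored higher. It covered 71.9% of Hamp including the transcript start, and went on for 5618 bp upstream. Of its bases 64.6% lay over Usf2, which encodes a transcription factor, and 17.5% over Hamp. When a peak was counted only where its midpoint fell in the window, Hamp held none. The liver list had no peak within 1 kb of Hamp. Its nearest peak, 30946096 to 30947505 (1410 bp, score 18, plus strand), lay 2067 bp upstream and wholly inside the span of the HEPA1-6 peak. Hamp2, the second hepcidin gene of mice, held no peak.

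Slc40a1 (chr1:45908070-45926532, 18463 bp) encodes ferroportin, the only known iron exporter of mammalian cells. Its single HEPA1-6 peak, 45912865 to 45914578 (1714 bp, minus strand), lay inside the gene, covered 9.28% of it and scored 25, the same as the peak at Hamp. The nearest liver peak was 92128 bp away. Within 100 kb there were 3 HEPA1-6 peaks and 1 liver peak, against medians of 4 and 1 over protein-coding genes.

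Cp (chr3:19956933-20009750, plus strand, 52818 bp), the gene of the ferroxidase ceruloplasmin, was the longest of the 8 and had the lowest-ranked HEPA1-6 peaks. Its 2 peaks were 975 bp (19960541 to 19961515, score 14) and 874 bp wide (19990295 to 19991168, score 16), both on the plus strand and both inside the gene. The first lay 3292 bp after the second transcript start. In the HEPA1-6 list 81.4% and 69.5% of peaks scored higher, and neither peak remained when that list was shortened to the length of the liver list. Together they covered 3.50% of the gene, below the median of 15.4% over genes of all lengths. A peak of a given width covers a smaller share of a longer gene, and no median by length was computed. In the liver list no peak lay within 100 kb, as for 34.2% of protein-coding genes, and the nearest was 737814 bp away.

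**Figure D3:**
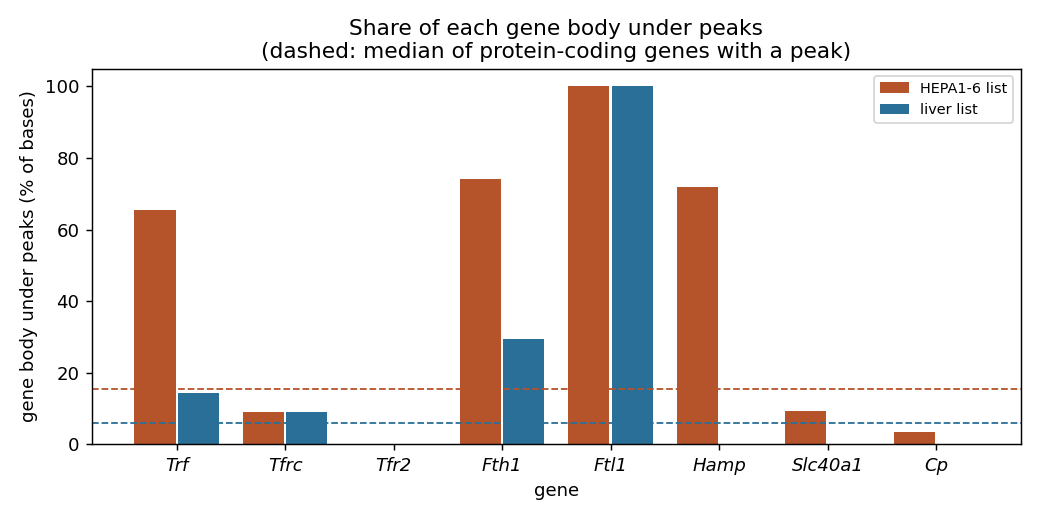
Bars give the percentage of each gene body (y axis) that lay under HEPA1-6 (orange) or liver (blue) peaks, and dashed lines the medians of protein-coding genes with a peak, 15.4% and 5.84%. Ftl1 was covered in full in both lists, and Trf, Fth1 and Hamp above 65% in HEPA1-6, whereas Tfrc, Slc40a1 and Cp lay below the HEPA1-6 median. The medians are over genes of all lengths, and a peak of a given width covers a larger share of a shorter gene.

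Set side by side, the 11 HEPA1-6 peaks had a median score of 25 (range 14 to 111), and 8 scored above the median of their list. Their median width was 2148 bp (351 to 11368 bp), against 1091 bp in the list, and 8 were wider than it. The 6 liver peaks had a median score of 30 (14 to 119), with 4 above the list median, and a median width of 1850 bp against 881 bp, with 5 wider. A wider peak is more likely to reach a gene window, and the list medians include peaks outside genes. No median over peaks at other genes was computed, so the widths do not mark out iron handling genes. Every peak carried a strand. Where the gene's strand was known, 5 of 6 HEPA1-6 peaks and 3 of 3 liver peaks lay on it, the exception being the HEPA1-6 peak at Ftl1. Of those HEPA1-6 peaks 2 are at Cp. The share over peaks at all genes was not computed, so whether this is usual is not known. How the strands were given is not stated either. Strands taken from gene annotation would match by construction, so these counts are a description only. Another gene lay under 3 of the 11 HEPA1-6 peaks and 2 of the 6 liver peaks. Both ferritin genes had 1 wide peak per list that ranked high and reached into a neighbour. Slc40a1 and Cp had peaks inside the gene, in HEPA1-6 only. By shared bases over bases in either peak, the pair at Tfrc was the most alike (0.992), followed by Fth1 (0.609) and Ftl1 (0.416).

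The other genes of iron biology were taken from 5 lists of 72 genes in all, which share no gene with the 8. Of these, 50 held a HEPA1-6 peak (69.4%, against 42.0% of protein-coding genes) and 33 a liver peak (45.8%, against 29.7%). All 33 were among the 50. Like the 8, these genes were listed with earlier results known, and a peak counts for every gene it reaches: the leading peaks of Slc25a28, Mcoln1, Slc11a2, Erfe, Pcbp1 and Slc48a1, and of Alad in liver, each also lay over another gene. Their median length was 20.8 kb, against 17.2 kb over protein-coding genes.

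Uptake and release genes stood lowest, with 4 of 13 in HEPA1-6 and 3 of 13 in liver, below the background share in both lists. Slc25a28, a mitochondrial iron importer, led this list in both sources, with scores of 48 and 38. Mcoln1, a channel of lysosomes, followed in HEPA1-6 (37), and Slc11a2, the importer that brings iron across membranes, in liver (19). No peak was found at Steap3, Slc39a14, Slc39a8, Heph, Cybrd1, Ltf, Lcn2 or Fam234a.

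Genes that sense iron and signal to hepcidin held peaks in 14 of 19 cases in HEPA1-6 and 10 of 19 in liver. Id1, a target of bone morphogenetic protein signals, had a peak starting at the same base in both lists, with scores of 285 (rank 104) and 175 (rank 137), higher than any of the 8 iron handling genes in its list. Smad1, which carries that signal to the nucleus, and Erfe, the hormone by which red cell precursors lower hepcidin, followed in HEPA1-6 with 62 each, and Smad5 in liver with 44. The upstream sensors Hfe and Hjv, like Neo1, Bmp2 and Acvr2a, held no peak in either list.

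Of 7 genes of iron regulation and storage, 6 held a HEPA1-6 peak and 3 a liver peak. Pcbp1, a chaperone that delivers iron to ferritin, led with scores of 215 (rank 165) and 87 (rank 408), and its relative Pcbp2 followed with 92 and 33. The peak scoring 92 had 0 bp in Pcbp2: it counted through the 1 kb flank and lay over Map3k12. Of the genes for the 2 iron regulatory proteins, which bind iron-responsive elements, Aco1 held 5 HEPA1-6 peaks and 1 liver peak, and Ireb2 2 HEPA1-6 peaks and none in liver.

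Haem genes held peaks in 14 of 18 cases in HEPA1-6 and 10 of 18 in liver. Slc48a1, a haem transporter, scored 100 in HEPA1-6 and 53 in liver, and Alad, an early enzyme of haem synthesis, 69 in liver. Ppox, of the same pathway, ranked second in HEPA1-6 through a peak scoring 93 that lay in its flank, over Usp21 and Ufc1, with 0 bp in Ppox. Alas1, the enzyme that sets the rate of haem synthesis in liver, and Hp, which carries free haemoglobin, held none. Of the genes that build iron-sulphur clusters, 12 of 15 held a HEPA1-6 peak and 7 of 15 a liver peak. The chaperone gene Hspa9 led both (150 and 82), followed by Bola3 in HEPA1-6 (52).

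**Figure D4:**
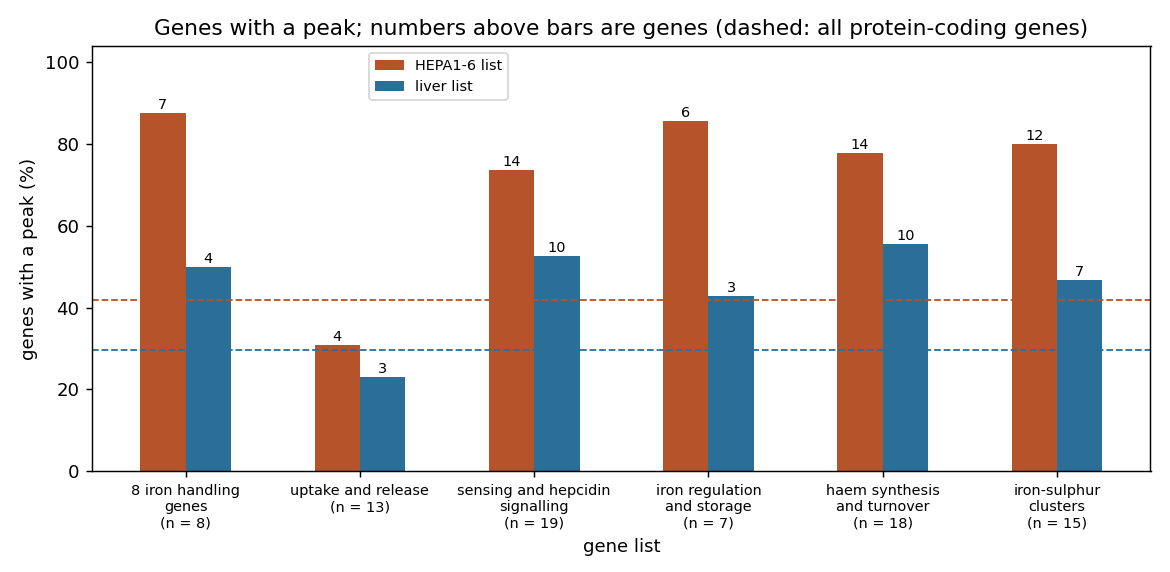
Bars give the percentage of genes in each list (x axis, with its number of genes) that held a HEPA1-6 (orange) or liver (blue) peak, with the count above each bar, and dashed lines the shares over all protein-coding genes, 42.0% and 29.7%. Uptake and release genes are the one list below both lines, though the intervals on their 13 genes contain both. The 8 iron handling genes are at 7 and 4.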

How the data were processed

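The analysis used 1 peak list per source, deposited by the authors, with chromosome, start, end, name, score and strand and no header. Scores in the authors' files are whole numbers from 10 upwards whose scale is unstated, so they served only to rank peaks within a list. Peak names in the deposited lists read as merged immunoprecipitate versus input. The submitters' processing notes name the build mm10 and CASAVA 1.8.2, cutadapt, Bowtie2, bedtools, SAMtools and MACS2, without roles or settings; thresholds and the way a strand was given are not given in the sources used here. Gene boundaries came from a RefSeq table of GRCm38.p6, the assembly called mm10, and gene strands and promoters from a RefSeq promoter table. Peaks were assigned to a gene on at least 1 bp of overlap with the gene body extended by 1 kb at each end. Coordinates are 1-based. Ranks count peaks with a higher score, and ties share a rank.

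The genes, lists and alternatives were chosen with earlier results of these data known, and the search for restriction sites after seeing a peak edge. The 8 genes were named whatever their values, with other genes under their peaks, ferritin copies and, for each further list, the 2 best-ranked genes of each source (ties kept); 1 gene that this rule names is not reported here. A few listed genes without a peak, Aco1 and Ireb2 were named after their values were seen. Promoter sequences were to be shown for genes whose window lies under a peak; for Tfrc, whose window lay only in part under the peaks, only the stretch at the peak start is shown. Calculations used Python 3.11.15 and numpy 2.4.6, and the overlap functions were tested on planted intervals.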

Additional observations from a re-analysis of the deposited data

How the results depend on the processing

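Settings were changed one at a time: the flank (none, 2 kb, 5 kb), assignment by peak midpoint, the higher-scoring 50% of each list, a HEPA1-6 list as short as the liver list, only peaks with a strand, and the overlap of pairs. Of 58 alternative counts for the 8 genes, their peaks and the further iron genes, 57 stayed within 1.5 times the reported count. The exception was the number of overlapping peak pairs, 6 as reported and 2 (Tfrc and Fth1) when 50% of both peaks had to overlap, which is stricter by construction. Some of the 58 could not move: every peak at the 8 genes carries a strand, and shortening the HEPA1-6 list leaves liver counts fixed. With counts this small the limit is wide, and falls from 7 to 5 genes or from 6 to 4 peaks stayed within it. Single genes changed sides. With 5 kb, Tfr2 joined in HEPA1-6 and Hamp in liver. The midpoint removed Ftl1 and Hamp in HEPA1-6. The higher-scoring 50% removed Cp in HEPA1-6 and Tfrc in liver. The background moved with these settings too, from 33.5% to 46.3% of protein-coding genes in HEPA1-6 and from 20.7% to 33.6% in liver. The share of edges near a restriction site was 54.0% to 54.4% in HEPA1-6 and 43.0% in liver for distances of 2 to 10 bp, alternatives chosen after seeing the data.

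No paired analysis was possible because each source has 1 merged list; leaving out replicates was not run for the same reason. The unknown depth limits every statement that a gene lacked a peak.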
